A study of Mus musculus with 2 samples.

Results

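Secondary granules are one of the sets of storage granules that a neutrophil fills while it matures in the bone marrow, and 8 genes of their contents and membrane were followed here through single bone marrow cells (BMCs). The genes were taken by name: *Camp* (cathelicidin, the precursor of an antimicrobial peptide), *Ngp* (neutrophilic granule protein, a relative of the cathelicidins and cystatins), *Ltf* (lactoferrin, an iron-binding protein), *Lcn2* (lipocalin 2, which binds bacterial siderophores), *Chil3* (Ym1, a chitinase-like lectin), *Fcnb* (ficolin B, a lectin of innate immunity), *Cd177* (a surface glycoprotein of neutrophils) and *Orm1* (orosomucoid 1, an acute-phase glycoprotein). All 8 were listed in both libraries, among 6001 genes listed in both. The Sc-RNA-Seq data came from 1 WT and 1 Cko mouse, both C57BL6/J and 21 days old, and the cells were BMCs of hindlimbs and forelimbs without red blood cells. In the Cko, site-1 protease (S1P, gene *Mbtps1*) was deleted in the osterix (Osx) lineage. By the study's methods the Cko mice were S1P f/f and carried an *Osx-Cre* transgene, and their control littermates were S1P f/f without it, so that floxed alleles were shared by both genotypes, although the label of the control library says WT only. The promoter of the transgene is known from cells of the osteoblast lineage, and the study describes Cre and deletion of *Mbtps1* in Cko neutrophils as well. With 1 library per genotype there was no replicate check and no test, so a difference between the libraries is one between 2 mice and their preparations. The 95% intervals given for sums of UMIs, shares of cells and Cko/WT ratios cover counting error only.

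A neutrophil builds its granules in sequence. Primary granules, with elastase (*Elane*) and myeloperoxidase (*Mpo*), are made first in promyelocytes, secondary granules follow in myelocytes and metamyelocytes, and gelatinase granules, with *Mmp9*, come last. The transcription of secondary granule genes is known to depend on the transcription factor C/EBPε (*Cebpe*), and a cell that has left this step carries the granules with it while the transcripts decline.

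The WT library held 56382459 UMIs in 6287 barcodes and the Cko library 34447224 UMIs in 3670 barcodes, of which 6271 and 3662 were kept, with a median of 6977 and 7440 UMIs per cell. The libraries shared 28 barcode sequences. Joint clustering, from which the 8 genes were left out, gave 21 clusters. Neutrophil-like cells (clusters 0 and 4) came to 639 WT and 1181 Cko cells. Cluster 0 was led by *Stfa1*, *BC100530* and *Stfa2l1*, followed by *S100a9* and *S100a8*, and cluster 4 by *Mmp8*, *Retnlg* and *Ly6g*. Granulocyte-monocyte progenitor-like (GMP-like) cells (clusters 9 and 12, led by *Elane* and *Mpo*) came to 541 and 417. These 2 classes together are called the neutrophil lineage below, with 1180 WT and 1598 Cko cells. *Ly6g*, a neutrophil surface marker, was at 383 and 529 CPM (UMIs of the gene per 1000000 UMIs of the class) in neutrophil-like cells against 3.87 and 4.64 CPM in B cell-like cells. *Mbtps1* itself was at 27.3 CPM in WT and 23.7 CPM in Cko neutrophil-like cells, which does not check the deletion because the reads come from the 3′ end of the transcript and not from the floxed exon. Of 16 erythroid markers, all had UMIs in neutrophil-like cells of both libraries, at a summed 6737 CPM in the WT and 1081 CPM in the Cko. Cells of the lineage in which hemoglobin genes took at least 1% of the UMIs were 35 of the WT cells (2.97%) and 11 of the Cko cells (0.688%). Leaving them out moved the median log2 Cko/WT ratio of the 8 genes over the lineage from 0.47 to 0.45.

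The 8 genes are protein coding and lie on 5 chromosomes of GRCm38. *Camp* (chr9:109847379-109849617, minus strand), *Ngp* (chr9:110419747-110423012, plus strand) and *Ltf* (chr9:111019271-111042767, plus strand) share chromosome 9, and *Lcn2* (chr2:32384633-32388252, minus strand) and *Fcnb* (chr2:28076378-28084885, minus strand) share chromosome 2. *Chil3* lies at chr3:106147554-106167564 (minus strand), *Cd177* at chr7:24743983-24760311 (minus strand) and *Orm1* at chr4:63344560-63348163 (plus strand). C/EBP factors bind sites of the form TTGCNNAA, read as TTNNGCAA on the other strand. These letters were searched on both strands in the 250 bases before the RefSeq start, for which 7 of the 8 genes had an entry (GRCm38.p6). They were present before *Ngp*, *Ltf*, *Lcn2* and *Fcnb*, that is, in 4 of 7 windows (57.1%), and in 3142 of the 32851 windows of all genes (9.56%). No match was found before *Camp*, *Chil3* and *Cd177*. A match is a description of the letters and not evidence of a bound site. The sequences below show where the letters lie in genes of early onset (*Fcnb*, *Camp*, *Ngp*) and of late onset (*Lcn2*, *Ltf*), 5′ to 3′ on the strand of the gene, with matches in capitals. Bases that GENCODE counts as exon are left out, which shortens *Camp* to 89 bases and *Ngp* to 189, and for *Lcn2*, whose window lies inside the GENCODE gene, 30 bases around the match are given.
Fcnb, chr2:28084886-28085128: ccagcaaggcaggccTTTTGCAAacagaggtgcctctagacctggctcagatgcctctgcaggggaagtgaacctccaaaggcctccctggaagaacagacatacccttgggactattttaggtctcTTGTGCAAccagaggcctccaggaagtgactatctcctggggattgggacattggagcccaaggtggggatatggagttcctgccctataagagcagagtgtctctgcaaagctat
Camp, chr9:109849618-109849706: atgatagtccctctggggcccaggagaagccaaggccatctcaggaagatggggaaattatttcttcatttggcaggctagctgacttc
Ngp, chr9:110419558-110419746: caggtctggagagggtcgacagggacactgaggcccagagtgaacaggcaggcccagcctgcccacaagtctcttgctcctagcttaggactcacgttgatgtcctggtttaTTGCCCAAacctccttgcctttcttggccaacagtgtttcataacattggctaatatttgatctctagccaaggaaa
Lcn2, chr2:32387937-32387966: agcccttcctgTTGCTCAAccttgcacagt
Ltf, chr9:111019042-111019270: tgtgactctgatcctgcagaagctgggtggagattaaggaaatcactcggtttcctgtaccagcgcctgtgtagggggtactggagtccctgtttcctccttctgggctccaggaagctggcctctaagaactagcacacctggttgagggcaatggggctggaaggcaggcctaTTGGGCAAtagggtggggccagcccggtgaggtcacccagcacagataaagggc
The matches begin 235 and 123 bases before the start of *Fcnb*, 138 and 11 before *Ngp*, 216 before *Lcn2* and 75 before *Ltf*. The match 11 bases before *Ngp* lies in the part that is not shown.

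Where were the genes transcribed? In both libraries the neutrophil-like cells had the highest level of each of the 8 genes among the classes with at least 50 cells. Because 1 UMI stands for 1 captured molecule, CPM of different genes may be compared without a correction for length. The order of the levels was *Camp*, *Ngp*, *Chil3*, *Lcn2*, *Ltf*, *Fcnb*, *Cd177*, *Orm1* in WT neutrophil-like cells, and in Cko neutrophil-like cells *Chil3* and *Lcn2* changed places. In these cells *Camp* was at 74910 CPM in the WT (74650 to 75180) and 70220 CPM in the Cko (70040 to 70400). *Ngp* followed at 67190 and 64740 CPM. *Camp* and *Ngp* stood far above the other members, with 43.4% and 38.9% of the members' UMIs in the WT and 42.9% and 39.6% in the Cko. *Chil3* was at 12350 CPM in the WT and 9974 CPM in the Cko, *Lcn2* at 9839 and 10560 CPM, and *Ltf* at 6269 and 6350 CPM. *Fcnb* was at 1596 and 1144 CPM, *Cd177* at 376 and 459 CPM and *Orm1* at 113 and 183 CPM. The 8 genes together took 17.3% of all UMIs of WT and 16.4% of Cko neutrophil-like cells, and in single cells of the lineage up to 46.1% and 66.1%.

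In GMP-like cells the levels were lower, and their order differed. *Camp* was at 11290 CPM in the WT and 8496 CPM in the Cko, *Ngp* at 4642 and 3810 CPM, and *Fcnb* at 1064 and 695 CPM, above *Chil3* in the WT (1019 CPM) and below it in the Cko (718 CPM). *Lcn2* (322 and 358 CPM), *Ltf* (103 and 93.1 CPM), *Cd177* (17.4 and 20.8 CPM) and *Orm1* (5.55 and 8.30 CPM) were lower still. *Fcnb*, the lectin, was the gene least bound to the neutrophil-like cells: 47.3% of its UMIs in the WT library and 31.4% in the Cko library came from GMP-like cells, against 17.4% and 8.66% for *Camp*. The signal within GMP-like cells came mainly from cluster 9, led by *Elane*, in which the 8 genes took 2.98% of the UMIs in the WT and 2.59% in the Cko, whereas they took 0.251% and 0.233% in cluster 12, led by *Mpo* and *Irf8*.

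**Figure D1:**
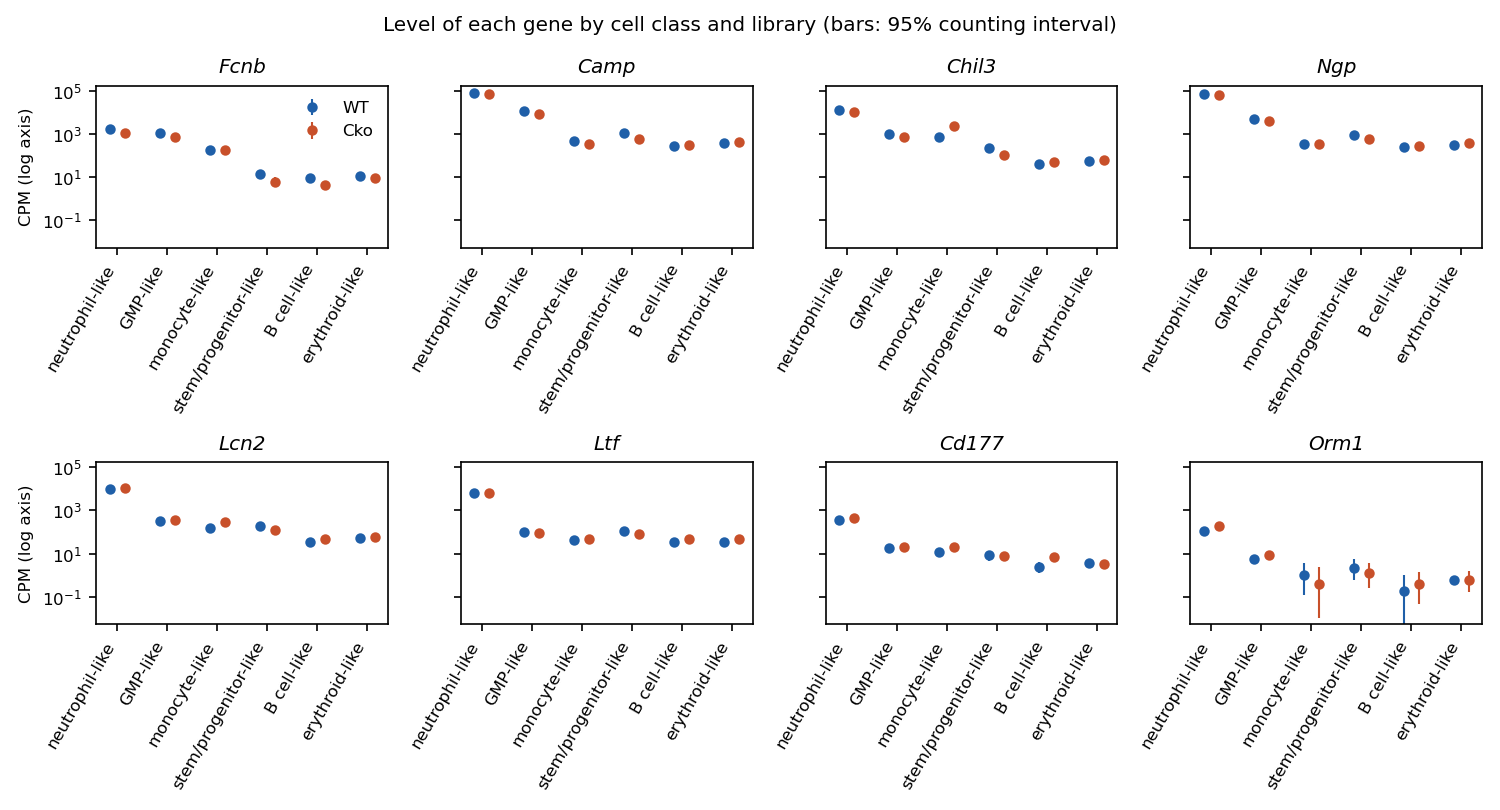
Level of each gene (CPM, log axis) in 6 cell classes, blue for the WT and orange for the Cko library, with 95% Poisson intervals. Neutrophil-like cells are highest in all 8 panels, and *Chil3* in monocyte-like cells stands at 729 CPM in the WT and 2259 CPM in the Cko.

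B cell-like and erythroid-like cells carried the same transcripts at a low level. Some clusters outside the lineage had more. *Camp* was at 30160 CPM in the WT and 20780 CPM in the Cko in cluster 15, led by *Igkc* and left unnamed. In cluster 14, with erythroid and neutrophil markers, it was at 10980 and 13270 CPM. Macrophage-like cells had 4637 CPM in the WT (49 cells) and 905 CPM in the Cko (9 cells). T/NK-like cells had 173 CPM in the WT (18 cells) and 3646 CPM in the Cko (63 cells). The median was 2 *Camp* UMIs per cell in macrophage-like cells of both libraries, and 1 in WT and 2 in Cko T/NK-like cells. Single cells reached 536 UMIs among WT macrophage-like and 511 among Cko T/NK-like cells. In B cell-like cells *Camp* was at 267 CPM in the WT and 301 CPM in the Cko, *Ngp* at 236 and 280 CPM, and *Chil3* at 39.3 and 49.8 CPM, and a B cell-like cell held a median of 1 *Camp* UMI in the WT and 2 in the Cko. Of the members' UMIs there, *Camp* made up 43.0% and 40.6%, *Ngp* 38.1% and 37.8%, and *Chil3* 6.33% and 6.73%, near the proportions of neutrophil-like cells. *Ltf* had a larger part than in neutrophil-like cells (5.26% and 6.71% against 3.63% and 3.88%), and so had *Cd177* (0.386% and 0.899% against 0.218% and 0.281%). Erythroid-like cells gave 44.7% and 43.4% for *Camp* and 36.3% and 37.9% for *Ngp*. The level in B cell-like cells, to which free RNA can add, was taken as the background. A gene was therefore called on in a cell only when, after each cell was thinned to 3000 UMIs, it had more UMIs than the 99th percentile of the B cell-like cells of the same library. This asked for at least 4 UMIs of *Camp* and of *Ngp* in the WT and 5 in the Cko, 3 of *Lcn2* in both, 2 of *Ltf*, *Chil3* and *Fcnb* in both, 1 of *Cd177* in the WT but 2 in the Cko, and 1 of *Orm1* in both. At least 1 gene was on in 2.06% of B cell-like cells in the WT and 1.85% in the Cko, in 2.86% and 2.26% of erythroid-like cells and in 5.37% and 5.48% of stem and progenitor-like cells.

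Monocyte-like cells (cluster 10, led by *Fn1*, *Ms4a6c* and *F13a1*, 287 WT and 272 Cko cells) did not keep these proportions. *Chil3*, known from alternatively activated macrophages and monocytes besides neutrophils, made up 37.3% of their member UMIs in the WT and 64.4% in the Cko. *Fcnb* made up 9.18% and 5.34%, and *Camp* 24.3% and 10.2%. *Chil3* was on in 28.9% of WT and 59.9% of Cko monocyte-like cells, with a median of 1 and 10 UMIs per cell. *Fcnb* was on in 10.1% and 11.0%, and *Camp* in 2.44% and 1.10%. At least 1 of the 8 genes was on in 39.0% and 64.0% of these cells, but 3 or more in 3.48% and 3.68%. *Chil3* alone, or with 1 partner, thus accounted for most of the cells in which a gene was on. Cluster 13 (46 WT and 282 Cko cells) was left unnamed, with monocyte markers as its nearest list. There *Chil3* made up 12.6% of the member UMIs in the WT and 21.0% in the Cko, with a Cko/WT ratio of CPM of 1.83 (1.58 to 2.12).

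To follow the onset, neutrophil-lineage cells were ordered without using the 8 genes, by the UMIs of late genes over those of early genes. The late genes were *Retnlg*, *Mmp8*, *Cxcr2*, *Il1b* and *Ccl6*, and the early genes *Elane*, *Mpo*, *Prtn3*, *Ctsg*, *Ms4a3* and *Nkg7*. *Csf3r*, also on the late list, was not listed in the Cko and was used in neither library. The cells were divided into 6 stages at the same limits in both libraries. *Elane* had 20510 CPM at stage 1 and 9.02 CPM at stage 6 in the WT, and 19870 and 26.3 CPM in the Cko. *Retnlg* had 10.4 and 7501 CPM in the WT and 21.9 and 9481 CPM in the Cko. These values only describe the ordering, which was built from them. From stage 1 to stage 6 the WT had 274, 229, 239, 161, 197 and 80 cells, and the Cko 161, 222, 209, 223, 358 and 425. Stage 6 thus held 6.78% of the lineage in the WT and 26.6% in the Cko. The median UMIs per cell was lower in later stages, going from 11800.5 at stage 1 to 3633.5 at stage 6 in the WT and from 13490 to 4298 in the Cko. Stage 2 held most cells of cluster 12, the *Irf8*-bearing GMP-like cells (132 of 229 WT and 118 of 222 Cko cells at that stage).

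The genes peaked one after another. *Fcnb* was the earliest: in the WT it stood at 1159, 1055, 2147, 1292, 721 and 310 CPM from stage 1 to stage 6, and in the Cko at 880, 745, 1730, 1247, 794 and 249 CPM. It was the only member above 50% of its peak at stage 1 and stood at 14.4% of its peak at stage 6, the lowest share of the 8, in both libraries. *Camp* stood at 7712, 15940, 61770, 73130, 76520 and 58990 CPM in the WT and at 6292, 12330, 52930, 74030, 74750 and 55260 CPM in the Cko. It kept 77.1% and 73.9% of its peak at the last stage. *Ngp* stood at 2483, 6933, 51950, 70850, 68530 and 56140 CPM in the WT and at 2150, 5337, 44280, 69900, 69520 and 56250 CPM in the Cko. Both *Camp* and *Ngp* passed 50% of their peak at stage 3, where the largest step of both lay. *Chil3* passed it at the same stage, with 788, 1342, 9741, 13320, 12860 and 6803 CPM in the WT and 587, 996, 7011, 11840, 11550 and 6200 CPM in the Cko. At stage 6 it stood at 51.1% and 52.4% of its peak.

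The iron-handling genes came later and were highest at the end. *Lcn2* stood at 182, 487, 6013, 10560, 11400 and 12690 CPM in the WT and at 208, 446, 5246, 10940, 11330 and 12260 CPM in the Cko. *Ltf* stood at 39.9, 157, 3728, 6815, 7459 and 7892 CPM in the WT and at 29.0, 85.9, 2463, 6379, 7091 and 8149 CPM in the Cko. Both passed 50% of their peak at stage 4. *Ltf* had the widest range of the members, from 0.505% of its peak at stage 1 in the WT and 0.356% in the Cko. *Cd177*, the surface protein, passed 50% at stage 4 as well, with 12.8, 22.7, 218, 372, 497 and 487 CPM in the WT and 8.49, 29.8, 219, 411, 526 and 565 CPM in the Cko. *Orm1*, the scarcest gene, stood at 2.13, 9.09, 79.8, 127, 126 and 84.2 CPM in the WT and at 4.02, 12.7, 99.91, 215, 221 and 145 CPM in the Cko, and passed 50% at stage 3 in the WT and stage 4 in the Cko. *Cebpe* had its lowest level at stage 2 (409 CPM in the WT and 382 CPM in the Cko), where most cells of cluster 12 lay. Its highest level was at stage 4 in the WT (1127 CPM) and stage 5 in the Cko (1171 CPM).

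**Figure D2:**
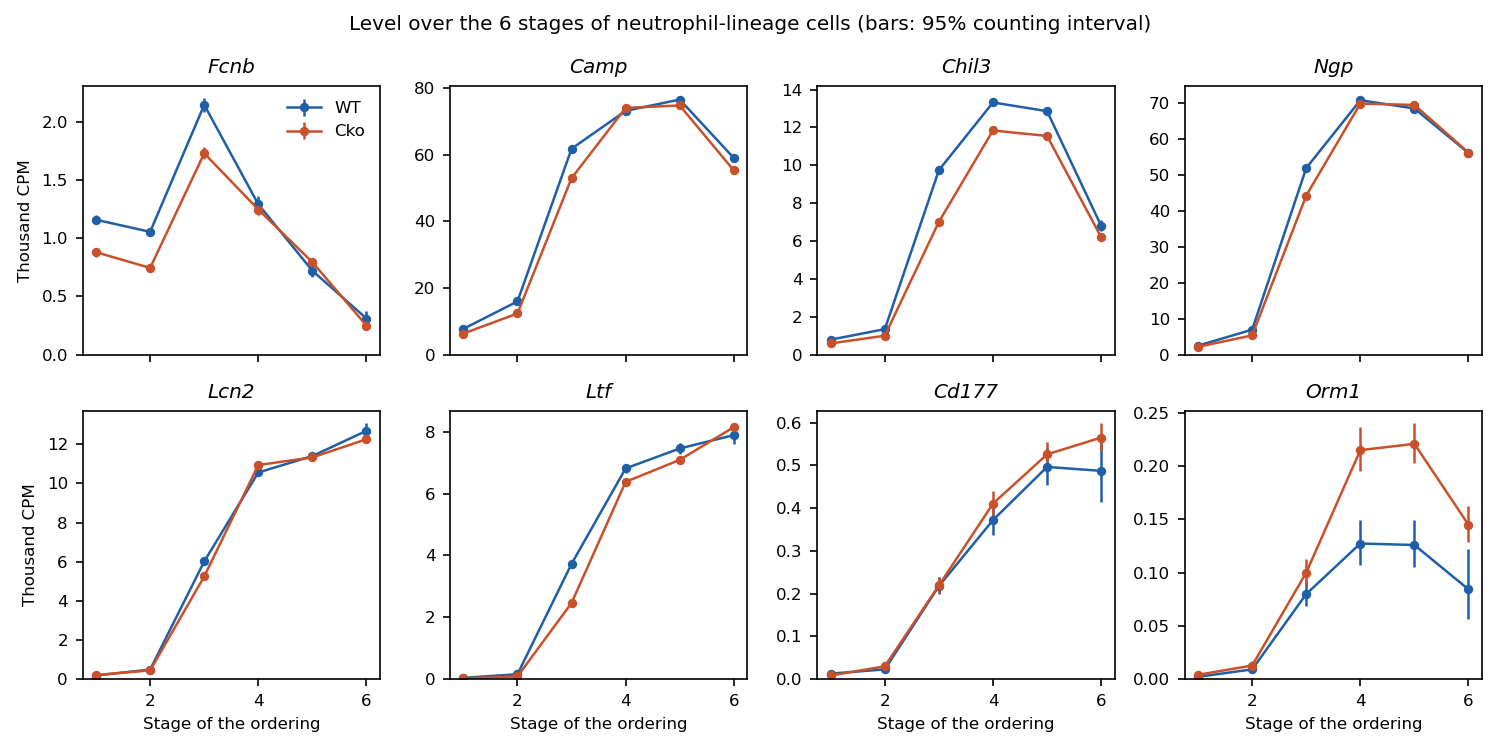
Level of each gene (CPM, axis in units of 1000, linear from 0, own scale per panel) over the 6 stages, blue for the WT and orange for the Cko library, with 95% Poisson intervals. *Fcnb* peaks at stage 3 and ends at 14.4% of its peak in both libraries, whereas *Ltf* and *Lcn2* are highest at stage 6.

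In single cells the same succession was seen as the share of cells in which a gene was on. *Fcnb* was on in 56.6% of WT cells at stage 1, in 81.2% at stage 3 and in 20% at stage 6, and in the Cko in 53.4%, 73.7% and 16.5%. *Camp* was on in 35.0%, 90.4% and 100% of WT cells at the same stages and in 36.0%, 84.7% and 100% of Cko cells. *Ltf* was on in 1.10% of WT cells at stage 1, 8.73% at stage 2, 84.9% at stage 3 and 97.5% at stage 4, and in the Cko in 1.24%, 7.21%, 75.1% and 98.2%. Most of the rise of *Ltf* thus fell between stages 2 and 3, where *Camp* had 35.8% of WT and 29.3% of Cko cells on beforehand. Cells of cluster 12 went from 132 WT and 118 Cko cells at stage 2 to 24 and 35 at stage 3. The part of this in the rise was not tested. *Cd177* was on in 43.9% of WT and 23.0% of Cko cells at stage 3, but its limit was 1 UMI in the WT and 2 in the Cko. With 1 UMI in both, the shares were 43.9% and 46.9%, so the gap between them follows from the limits. *Orm1*, with 1 UMI as its limit in both, was on in 18.4% of WT and 27.8% of Cko cells at stage 3 and in 26.9% and 42.7% at stage 5.

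**Figure D3:**
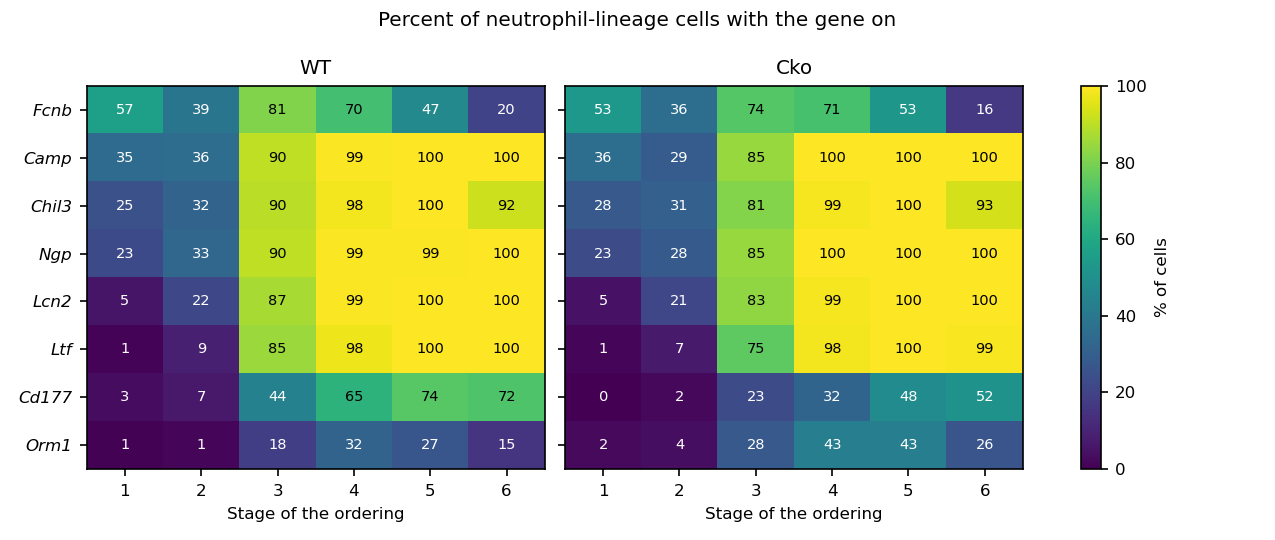
Percent of neutrophil-lineage cells with each gene on (colour and printed value, 0 to 100%) by stage, in the WT and the Cko. From stage 4 on, *Camp*, *Ngp*, *Chil3*, *Lcn2* and *Ltf* are on in at least 92.5% of the cells of both libraries, while *Fcnb* fades to 20% and 16.5%, and *Cd177* is called at 1 UMI in the WT and 2 in the Cko.

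The order of onset was read from pairs of genes in the 742 WT and 592 Cko cells of stages 1 to 3, by counting the cells in which one gene was on and the other off. In the WT the order was *Fcnb*, *Camp*, *Chil3*, *Ngp*, *Lcn2*, *Ltf*, *Cd177*, *Orm1*. In the Cko the last pair was reversed, so 27 of the 28 pairs had the same order in both. *Fcnb* was on without *Camp* in 74 WT cells and *Camp* without *Fcnb* in 30, and in the Cko in 52 and 32. *Camp* was on without *Ngp* in 44 WT cells against 4 the other way, and in 26 against 3 Cko cells. Between *Ltf* and either *Camp* or *Ngp* the counts ran in a single direction: *Camp* was on without *Ltf* in 168 WT and 125 Cko cells, and *Ltf* without *Camp* in 0 and 0. *Ngp* was on without *Ltf* in 128 and 102 cells, and the reverse was found in 0 and 0. *Lcn2* preceded its partner in iron withholding, *Ltf*, with 52 against 5 cells in the WT and 58 against 4 in the Cko. *Ngp* and *Chil3* were not ordered by these counts, with 24 against 25 cells in the WT and 22 against 28 in the Cko. *Cd177* without *Orm1* was seen in 107 WT cells against 26 the other way and in 32 Cko cells against 49, a reversal that again goes with the limit of 1 and 2 UMIs for *Cd177*. A gene with more UMIs per cell passes its limit more easily, so the place of *Cd177* and *Orm1*, with medians of 0 to 3 UMIs per cell at every stage, is limited by depth. *Ltf* was also scarcer than *Camp*, with a median at stage 3 of 29 against 544 UMIs per cell in the WT and 25 against 650 in the Cko. The part of this in their order was not tested. For *Fcnb*, placed before *Camp*, the limit was 2 UMIs against 4 or 5 for *Camp*, and at stage 1 the median was 8 *Fcnb* UMIs per cell in both libraries, and 4 *Camp* UMIs in the WT and 6 in the Cko.

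The combinations followed this order. At stage 1 none of the 8 genes was on in 114 of 274 WT cells, *Fcnb* alone in 50, *Camp* with *Fcnb* in 25, and *Camp*, *Ngp*, *Chil3* and *Fcnb* in 29. The same combinations were found in 65, 24, 12 and 18 of 161 Cko cells. At stage 2 none was on in 58.9% of WT and 63.1% of Cko cells, and at stage 3 in 8.37% and 13.9%. The median number of genes on per cell was 1, 0, 6, 7, 6 and 6 from stage 1 to stage 6 in both libraries. Cells with at least 5 genes on made up 20.5% of WT and 20.7% of Cko cells at stage 2 and 87.4% and 82.8% at stage 3. The main change between neighbouring stages thus lay here, but the make-up of the stages changed as well. Cluster 12, in which the 8 genes took 0.251% and 0.233% of the UMIs, had 132 WT and 118 Cko cells at stage 2. At stage 3 it had 24 and 35. The part of this in the change was not tested. At stage 6 the commonest combination was all but *Fcnb* and *Orm1*, in 37 of 80 WT and 134 of 425 Cko cells. All 8 genes were on together in 64 WT cells (5.42% of the lineage) and 88 Cko cells (5.51%).

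**Figure D4:**
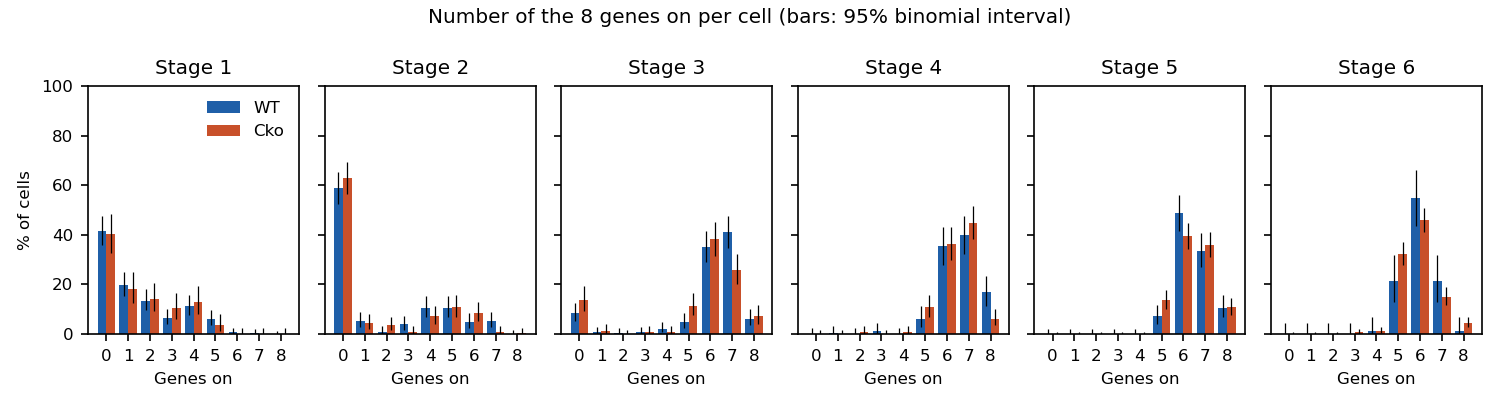
Percent of cells by the number of the 8 genes on, for the 6 stages, blue for the WT and orange for the Cko library, with 95% binomial intervals. The mode goes from 0 in stage 2 (58.9% of WT and 63.1% of Cko cells) to 6 or 7 from stage 3 on. At stage 6 it is 6, with 5 genes on in 21.25% of WT and 32.5% of Cko cells.

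Over the whole lineage, every cell with *Ltf* on also had *Camp* on (660 of 660 WT and 1173 of 1173 Cko cells), and 99.2% and 99.7% had *Lcn2* on. The converse was looser, with *Ltf* on in 79.4% of WT and 89.8% of Cko cells that had *Camp* on. Of the cells with *Ltf* on, 63.9% in the WT and 48.4% in the Cko had *Fcnb* on, and fewer still had *Orm1* on (24.1% and 35.4%). *Cd177*, with its unequal limits, was on in 64.1% and 43.6% of them. Every neutrophil-like cell had at least 3 of the 8 genes on. These shares depend on how many cells of each stage a library held.

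How did the levels compare between the genotypes? Over the whole lineage, *Camp* had a Cko/WT ratio of 1.2 (1.195 to 1.205), *Ngp* of 1.32, *Ltf* of 1.45 and *Lcn2* of 1.52 (1.504 to 1.539). *Chil3* was at 1.09, *Cd177* at 1.71 (1.614 to 1.81) and *Orm1* at 2.25 (2.039 to 2.495), whereas *Fcnb* was at 0.744 (0.727 to 0.762). *Lcn2*, *Cd177* and *Orm1* were at least 1.5-fold higher in the Cko, that is, 3 of 8 members, against 3.48% of the 5309 genes with at least 100 UMIs in these cells. No member was at least 1.5-fold lower, against 6.48% of those genes. The median log2 ratio was 0.47 for the members and -0.16 for all these genes. When each library was clustered on its own, 1 member was higher (*Orm1*) and 1 lower (*Fcnb*) by this limit. *Lcn2* lay near the limit, and the count of members higher was 2 with a resolution of 0.4, with the members in the clustering or without the *Irf8* cluster, and 4 with a resolution of 1.2. Stage 6 held 26.6% of the lineage in the Cko against 6.78% in the WT, and the part of this in the ratios over the whole lineage was not tested by itself.

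Within the stages the picture was another one. Averaged over the 6 stages, the log2 ratio was 0.67 for *Orm1*, the only member at least 1.5-fold higher (2.86% of all genes), and none was at least 1.5-fold lower (5.63%). The averages of the others lay between -0.34 for *Ltf* and 0.04 for *Cd177*, and the median over the members was -0.15 against -0.03 for all genes. At stages 1 to 3 the ratios of *Camp*, *Ngp*, *Ltf*, *Chil3* and *Fcnb* were below 1, whereas *Lcn2* was at 1.14 (1.01 to 1.29), 0.916 and 0.873, and *Cd177* at 0.664 (0.365 to 1.17), 1.31 (0.967 to 1.79) and 1.01. *Ltf* at stage 1 (39.9 CPM in the WT and 29.0 CPM in the Cko) was at the level of B cell-like cells (32.6 and 49.6 CPM), so its ratio there is not read. Its ratios were 0.546 at stage 2 (0.473 to 0.629) and 0.661 at stage 3 (0.639 to 0.683), then 0.936, 0.951 and 1.03 at stages 4 to 6. Its average over stages went from -0.34 to -1.26 when the B cell-like level was subtracted. Both averages include stage 1, where the Cko level lay below the B cell-like one and was set to 0.5 UMI after the subtraction. *Chil3* had 0.746, 0.742 and 0.720 at stages 1 to 3, and 0.888, 0.899 and 0.911 afterwards. *Camp* had 0.816, 0.773 and 0.857, and then 1.01, 0.977 and 0.937. *Fcnb* had 0.759, 0.706 and 0.806, and then 0.965, 1.10 and 0.804 (0.650 to 1.004). In contrast, *Orm1* was above 1 at every stage, with 1.89 (0.625 to 5.96), 1.40 (0.862 to 2.31), 1.25 (1.03 to 1.53), 1.69 (1.40 to 2.05), 1.76 (1.45 to 2.14) and 1.72 (1.17 to 2.63). A stage is a range of the ordering, and whether the cells within it were equally far in both libraries was not tested. With another clustering (resolution 1.2, against 0.8 here) the averages over stages of *Camp*, *Ngp*, *Ltf*, *Chil3* and *Fcnb* were above 0 instead, so their direction is not settled by these data. Nor is that of *Lcn2* and *Cd177*. *Lcn2*, at -0.02 here, kept its sign in 8 of 12 alternatives and was at 0.32 with that clustering, and *Cd177*, at 0.04 here, was at -0.30 with the B cell-like level subtracted. *Orm1* was at 0.64 or more in all 12 alternatives.

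**Figure D5:**
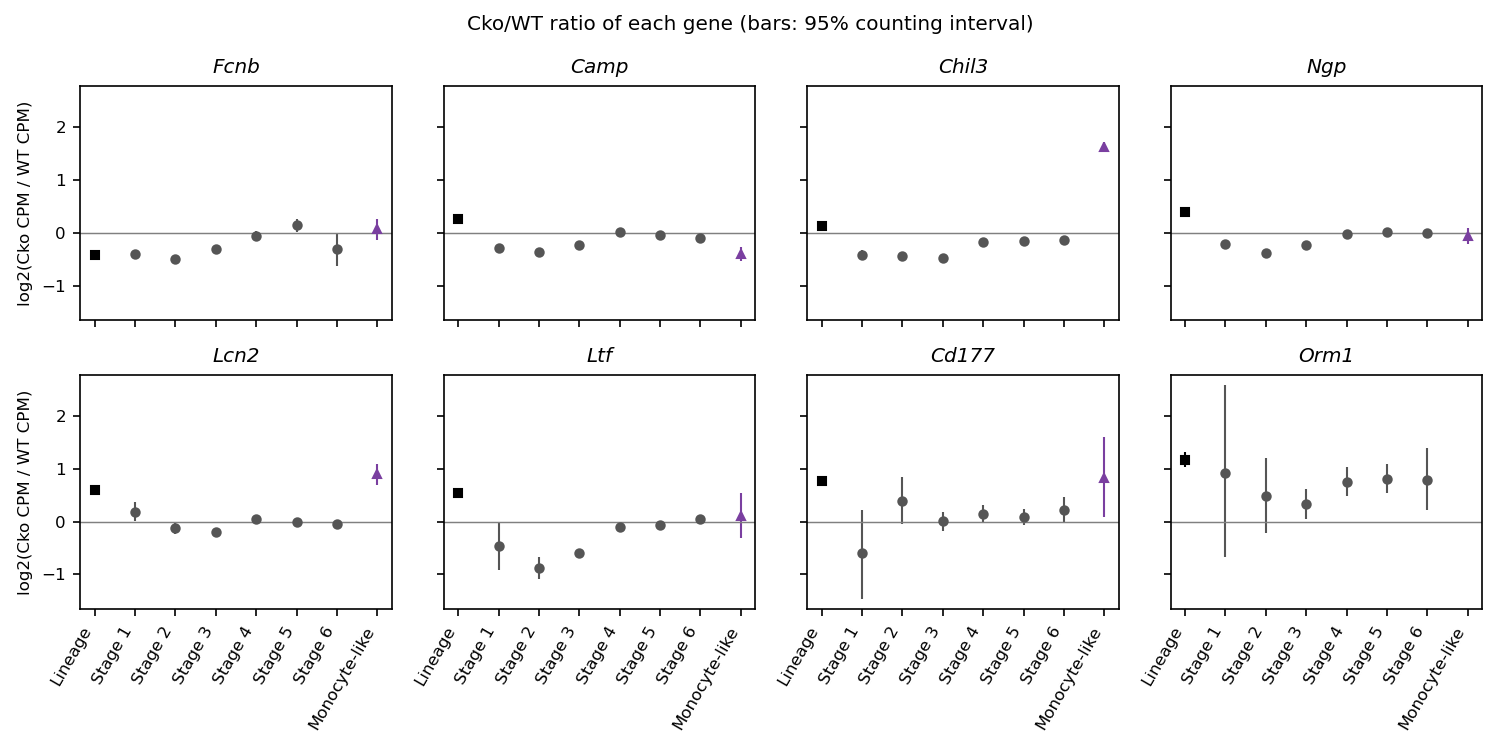
Log2 of the Cko/WT ratio of CPM of each gene over the whole lineage (black square), within each stage (grey circles) and in monocyte-like cells (purple triangle), with 95% intervals. *Orm1* is above 0 at each stage, *Ltf* is lowest at stage 2 (ratio 0.546), *Chil3* in monocyte-like cells is at 1.63, and *Orm1* in monocyte-like cells, with 2 and 1 UMIs, is left out.

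In monocyte-like cells *Chil3* was higher in the Cko, with 1423 UMIs in the WT and 5501 in the Cko, a ratio of CPM of 3.10 (2.93 to 3.29). The ratio was 0.807 (0.798 to 0.816) in neutrophil-like and 0.705 (0.679 to 0.731) in GMP-like cells, each class taken as a whole. Over both classes together it was 1.09, and the direction within stages was not settled, as given above. In monocyte-like cells *Lcn2* was at 155 and 288 CPM, a ratio of 1.86 (1.62 to 2.13), and *Camp* at 475 and 359 CPM, a ratio of 0.755 (0.688 to 0.829). *Ngp* (0.962), *Ltf* (1.08) and *Fcnb* (1.05) had intervals that held 1. The listed neutrophil markers used to name clusters (16 in the WT and 15 in the Cko) summed to 28420 CPM in WT and 29390 CPM in Cko monocyte-like cells, and the 12 monocyte markers to 12020 and 11350 CPM. Macrophage markers (8 listed in the WT and 7 in the Cko) summed to 60.4 and 151 CPM, with *C1qb* and *C1qc* at 0 in the Cko and *Cd5l* at 0 in the WT. Erythroid markers summed to 16950 and 5407 CPM and dendritic cell markers to 421 and 165 CPM. The part of these in the *Chil3* difference was not tested. The median depth of the cells was 6377 UMIs in WT and 8280.5 in Cko cells, and the share of cells with *Chil3* on was taken at equal depth. The difference stayed above a log2 ratio of 1 in all 8 alternatives tried, between 1.22 and 2.62.

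Other genes of granulopoiesis set the frame. Of the 6 early genes, 0 were at least 1.5-fold higher and 2 lower in the Cko over the lineage, *Elane* (0.634) and *Nkg7* (0.417), and the list's median log2 ratio was -0.44. Of the 4 late genes that could be measured, 4 were higher, with *Mmp8*, neutrophil collagenase, at 4.61 and *Retnlg* at 4.49, and a median of 1.73. These 2 lists made up the ordering, and *Mmp8* also belongs to the next list. Of 11 other granule and membrane genes measured, 3 were higher (*Mmp8*, *Mmp9* at 3.86 and *Slpi*, a protease inhibitor, at 1.64) and 1 was lower (*Pecam1*, 0.587), with a median of 0.37. Among 5 regulators, *Gfi1*, a repressor needed for granulopoiesis, was lower (0.591), and *Cebpe* had a ratio of 1.14. Averaged over stages the medians of the 4 lists were 0.31, 0.46, -0.03 and 0.07.

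Which genes resembled the members most was read from log2(CPM + 1) over 22 points, the 6 stages and the other named classes with at least 50 cells in each library, among 5309 genes. The points share the depth and the free RNA of their library, and the values are a description. *Camp* was closest to *1100001G20Rik* (Pearson r of 0.985), *Ngp* to *Adpgk* (0.986), *Ltf* and *Lcn2* to *Chil1* (0.979 and 0.989), *Chil3* to *S100a8* (0.970), *Fcnb* to *Ero1l* (0.947), *Cd177* to *C5ar1* (0.984) and *Orm1* to *Inhba* (0.989). Among the members themselves *Lcn2* and *Cd177* were most alike (0.994), and *Ltf* and *Fcnb* least (0.542).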

How the data were processed

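The data are 2 Sc-RNA-Seq libraries, 1 of WT and 1 of Cko BMCs, from mice aged 21 days. Per the labels, the authors prepared them with version 2 of the Chromium 3′ kit and processed the reads with Cell Ranger on GRCm38, and the Cell Ranger version is not given in the sources used here. They deposited whole-number UMI counts per gene and barcode without normalization. The lowest maximum of a gene in its file was 4 UMIs per cell, so genes of low maximum are absent, and an absent gene was not read as 0.

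The minimum per barcode was 200 genes. Cells of both libraries were clustered together with Seurat 5.3.0 (R 4.3.3) on 2000 variable genes without the 8 members and the *Stfa* genes, with 20 components, 20 neighbours and a resolution of 0.8. Scrublet (scanpy 1.11.5, expected rate 5%) marked 2.03% of the WT (127) and 1.39% of the Cko (51) as doublets, which stayed in. A cluster was named "-like" after the cell type with the most of its markers among the 25 leading genes, with at least 3 markers held by at least 25% of its cells and at least 1.5-fold higher than elsewhere. Names were rebuilt here and may differ from the study's. Levels are UMIs summed over a class, per 1000000 UMIs of that class (CPM). The ordering was log2 of the late over the early genes per 10000 UMIs, with 1 added to each. A score of 0, given by equal amounts of both lists, was found in 96 WT and 125 Cko cells. Stage 5 began at 0 and held all of them, among its 197 WT and 358 Cko cells. Stage limits gave each library equal weight. For calls of genes on, cells were thinned to 3000 UMIs, and 4 WT cells outside the lineage were too shallow. For log2 ratios across all genes and for averages over stages, 0.5 UMI was added to each sum.

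Intervals at 95% are exact Poisson (sums), exact binomial (shares) and exact conditional (ratios). Only those for ratios were run on simulated data. The simulated counts were Poisson, as the interval assumes, so this checks the calculation and not the spread between cells. The named genes were the members, the lists given in the text and the genes most like each member. Members and lists were chosen with earlier results of these data known. *Olfm4* and *Cebpd* were listed in neither library. Scripts ran under Python 3.11.15 with scipy 1.17.1, pandas 2.3.3, numpy 2.4.6 and, for plots, matplotlib 3.10.9.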

Additional observations from a re-analysis of the deposited data

Results flagged for a closer look

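In B cell-like cells 3 or more of the 8 genes were on in 0.387% of the WT and 0.554% of the Cko cells, and in several clusters outside the lineage the share was higher in both libraries. In cluster 15, led by *Igkc* and *Ighm* and left unnamed, this was 61.1% of 72 WT cells and 42.7% of 75 Cko cells, of which 3 of 44 and 4 of 32 were called as doublets. In cluster 14, which carried erythroid and neutrophil markers together, it was 34.3% of 201 WT cells and 41.4% of 29 Cko cells, and 27 of the 69 and 8 of the 12 such cells were called as doublets. In cluster 13, led by *Wfdc17* and *H2-Aa* and left unnamed, it was 8.70% of 46 WT cells and 5.67% of 282 Cko cells. Among the named classes it was 3.48% and 3.68% of monocyte-like and 1.95% and 2.74% of stem and progenitor-like cells, 12.5% of 48 WT but 0 of 9 Cko macrophage-like cells, and 9.52% of 63 Cko but 0 of 18 WT T/NK-like cells. Doublets as a source were not tested beyond these calls.

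Some Cko/WT ratios lay on opposite sides of 1, with intervals that did not hold 1, in cells that were compared side by side, and these differences were not tested. *Chil3* was at 0.807 in neutrophil-like and 0.705 in GMP-like cells but at 3.10 in monocyte-like cells. Over the neutrophil-like and GMP-like cells together, however, *Chil3* was at 1.09. Between stages, *Camp* was at 0.773 at stage 2 and 1.01 at stage 4, *Ngp* at 0.770 at stage 2 and 1.01 at stage 5, *Fcnb* at 0.706 at stage 2 and 1.10 at stage 5, and *Lcn2* at 1.14 at stage 1 and 0.873 at stage 3.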

How the results depend on the processing

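No paired analysis was possible because there was 1 library per genotype, and for the same reason no library could be left out. The order of onset had 23 to 28 of 28 pairs alike in both libraries over 13 alternatives (27 in the report). Clustering each library on its own gave 1 member higher and 1 lower, a median log2 ratio of 0.13 (0.47 in the report), an average over stages of -0.067 (-0.15 in the report) and 2.62 for *Chil3* in monocyte-like cells (1.63 in the report), and it turned *Camp* (-0.05) and *Chil3* (-0.18) below 0 over the lineage. A resolution of 0.4 gave 0.44, -0.19 and 1.47 for the same 3 values, and a resolution of 1.2 gave 0.57, 0.18 and 1.22. The lineage median and the average over stages were 0.44 and -0.19 with the members in the clustering, 0.45 and -0.19 with at least 500 genes per cell, and 0.50 and -0.16 as CPM over the other genes. The average over stages alone moved to -0.18 without called doublets, -0.20 with the B cell-like level subtracted (*Ltf* then at -1.26), -0.12 with shorter ordering lists and -0.12 with 3 stages. Without called doublets the median number of genes on was 2 in the WT and 3 in the Cko instead of 6, because the B cell-like class then took in the cells led by *Igkc* and the limit for *Camp* was 177 and 162 UMIs. In 2 alternatives chosen after the data were seen, leaving out cells rich in hemoglobin (35 WT and 11 Cko cells) gave 0.45 and -0.14, and leaving out the *Irf8* cluster 0.41 and -0.13. The alternatives for *Chil3* in monocyte-like cells were also added then. Except for the doublets, the cause of these shifts was not tested. Levels of a few UMIs per cell or fewer, as for *Orm1* and *Cd177*, are limited by depth.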
